A study of Rattus norvegicus with 33 samples.

Results

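Soleus muscle 1 day after gastrocnemius ablation (GA) was compared with soleus 1 day after a sham operation (Sham-GA), with 3 arrays titled GA-1Day and 3 titled Sham-GA-1Day. These are 6 of the 33 arrays of the series, and the comparison ran across 15310 rows with 1 gene symbol of 29214 rows in all. The study asked how soleus responds to loading when the muscle is paralyzed by spinal cord injury (SCI) and exercised by electrical stimulation (ES), and used GA to load a soleus whose nerve supply is intact. In GA animals the distal gastrocnemius insertion into the Achilles tendon was freed by blunt dissection and cut in the left hindlimb under isoflurane, which leaves the soleus and plantaris to carry the load. Sham-GA animals had the same anesthesia, skin incision and dissection, and the insertion was left uncut. All 6 rats were female Wistar animals of 22 to 23 weeks at surgery, none had spinal surgery or ES, and each array holds RNA from the soleus of 1 animal. A short description deposited with the series places the ablation on both sides, where the study's methods give the left hindlimb. GA does not prevent movement and is not graded, so the load on the soleus was not set or measured, and both groups carry a fresh surgical wound beside the muscle.

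The soleus is a postural muscle made mostly of slow, oxidative fibers. When a synergist is cut, the load on the remaining muscle rises at every step, and the muscle grows over the following days and weeks. Stretch and stress of muscle cells are known to switch on immediate early genes, whose products are transcription factors and secreted proteins that act within hours. Surgery and overload also bring neutrophils and then macrophages into a muscle, and genes for burning fat and sugar in mitochondria are abundant in a slow muscle at rest.

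The 6 arrays had medians of 6.47 to 6.49 on the log2 scale, and their values ran from 2.19 to 14.21. The tissue label was borne out by the slow-twitch markers Myh7, Tnnt1 and Myl2, which encode slow myosin heavy chain, slow troponin T and slow myosin light chain and lay at 12.37 or above on all 6 arrays. Sham-GA replicate 1 stood apart from its group. Over all genes it correlated at 0.990 with GA replicate 1 and at 0.970 and 0.971 with the other Sham-GA arrays, which correlated at 0.991 with each other. On the first principal component of the 6 arrays (59.2% of the variance) the GA arrays scored -32.1, 6.50 and -16.3, and the Sham-GA arrays scored -23.2, 31.6 and 33.5, with replicate 1 on the side of GA replicates 1 and 3. This array also carried high levels of leukocyte markers, given with the gene groups below. Log2 fold changes, adjusted p values and list medians are therefore also given without Sham-GA replicate 1, from a fit in which that group has 2 arrays, in brackets as the log2 fold change with its adjusted p. The array was chosen after its values were seen. Leaving out a Sham-GA array that lies near the GA arrays widens many differences by the choice itself. Genes that pass only without it therefore have no separate support. No batch, scan or extraction date was available for these arrays.

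GA raised 8 genes at 1 day and lowered 0. They were the potassium channel gene Kcnk10, the immediate early genes Atf3, Egr3, Ier5 and Ccn1, the muscle gene Asb5, Tex10 and Nudt4, and their rises ran from 1.92-fold (Nudt4) to 4.13-fold (Atf3). A call needed both a limma p under 0.05, adjusted by Benjamini-Hochberg over all genes, and a difference of 1.5 fold or more. The fit held the 18 GA and Sham-GA arrays of days 1, 3 and 7, so that all 6 groups share 1 estimate of the spread. Of 14451 genes tested, 8 were called higher (0.0554%) and 0 were called lower (0%), while 678 higher and 1300 lower genes had an unadjusted p under 0.05. Leaving out GA replicate 1, GA replicate 3, Sham-GA replicate 2 or Sham-GA replicate 3 left 1 called gene, Kcnk10. Without Sham-GA replicate 1, 122 genes were called higher (0.844% of 14449) and 60 lower (0.415%), and all 8 were among them. Their transcript clusters on the array are 10891520 (Kcnk10), 10770710 (Atf3), 10781337 (Egr3), 10768814 (Ier5), 10827231 (Ccn1), 10940503 (Asb5), 10876688 (Tex10) and 10902003 (Nudt4). Groups were called separated where the values of the 3 GA arrays were all above, or all below, those of the 3 Sham-GA arrays, which held for 803 genes on the higher side (5.56%) and 1602 on the lower side (11.1%).

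Kcnk10 encodes TREK-2, a potassium channel of the 2-pore family that is known to open when a membrane is stretched. Its log2 expression was 6.25, 6.13 and 6.50 in GA soleus, against 5.11, 4.72 and 4.88 in Sham-GA soleus. The lowest GA array lay more than 1 log2 unit above the highest Sham-GA array. Kcnk10 is a dim gene here, since all its values but that of GA replicate 3 lay below the array medians of 6.47 to 6.49. A filter at a mean of 6 removes it. The gene rose 2.62-fold (log2 fold change 1.39, SE 0.153, 95% confidence interval 1.06 to 1.72, adjusted p = 0.00218). It was the 1 gene still called whichever of the 6 arrays was left out, with adjusted p values from 0.00212 to 0.0276 by limma.

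Atf3 encodes a transcription factor induced by cellular stress. Its values were 11.06, 10.17 and 11.28 in GA soleus and 9.25, 8.57 and 8.55 in Sham-GA soleus, with GA replicate 2 and Sham-GA replicate 1 nearest to the other group. The means were 10.84 ± 0.590 in GA and 8.79 ± 0.402 in Sham-GA (SD, n = 3 each), and the gene rose by 2.05 on the log2 scale (SE 0.347, adjusted p = 0.0475 by limma). Egr3, a zinc finger factor of the early growth response family, was at 7.62, 7.18 and 7.55 in GA soleus, against 6.70, 6.50 and 6.30 in Sham-GA soleus. Its groups did not overlap, and it rose by 0.95 on the log2 scale (SE 0.148, adjusted p = 0.0368). Ier5, an immediate early gene, was at 8.67, 8.16 and 8.82 in GA soleus and at 7.73, 7.00 and 7.33 in Sham-GA soleus. Its nearest arrays were GA replicate 2 and Sham-GA replicate 1, and the rise was 2.29-fold (log2 fold change 1.20, SE 0.192, adjusted p = 0.0368).

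Ccn1, also known as Cyr61, encodes a secreted protein of the matrix that binds integrins. It was at 12.66, 11.53 and 12.51 in GA soleus, against 10.81, 10.44 and 10.43 in Sham-GA soleus, so that the groups were separated and GA replicate 2 was the lowest of its group. The rise was 3.20-fold (log2 fold change 1.68, SE 0.274, adjusted p = 0.0368 by limma). Asb5, an ankyrin repeat and SOCS box gene expressed in skeletal muscle, was at 12.26, 11.94 and 12.58 in GA soleus and at 11.37, 11.47 and 10.95 in Sham-GA soleus. It is the called gene in which Sham-GA replicate 1 did not lie highest of its group. Its log2 fold change was 0.99 (SE 0.160, adjusted p = 0.0368).

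Tex10 encodes a nuclear protein that in human cells belongs to a complex of ribosome assembly. It was at 9.33, 9.09 and 9.49 in GA soleus, against 8.67, 8.02 and 8.01 in Sham-GA soleus, with Sham-GA replicate 1 standing nearest to the GA arrays. The log2 fold change was 1.07 (SE 0.168, adjusted p = 0.0368 by limma). Nudt4, which encodes a phosphatase of diphosphoinositol polyphosphates, was at 12.08, 11.61 and 12.07 in GA soleus and at 11.19, 10.98 and 10.78 in Sham-GA soleus. Its log2 fold change was 0.94 (SE 0.153, adjusted p = 0.0368). Apart from Kcnk10, the calls rest on the whole set of arrays. For these 7 genes the adjusted p was 0.134 to 0.386 without GA replicate 3, Sham-GA replicate 2 or Sham-GA replicate 3, and 0.0872 to 0.0976 without GA replicate 1. It was 0.00214 to 0.0103 without GA replicate 2 and 0.00212 to 0.0169 without Sham-GA replicate 1. The log2 fold changes of the 8 genes without the last of these arrays ran from 1.04 (Nudt4) to 2.28 (Atf3), with Kcnk10 at 1.49.

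**Figure D1:**
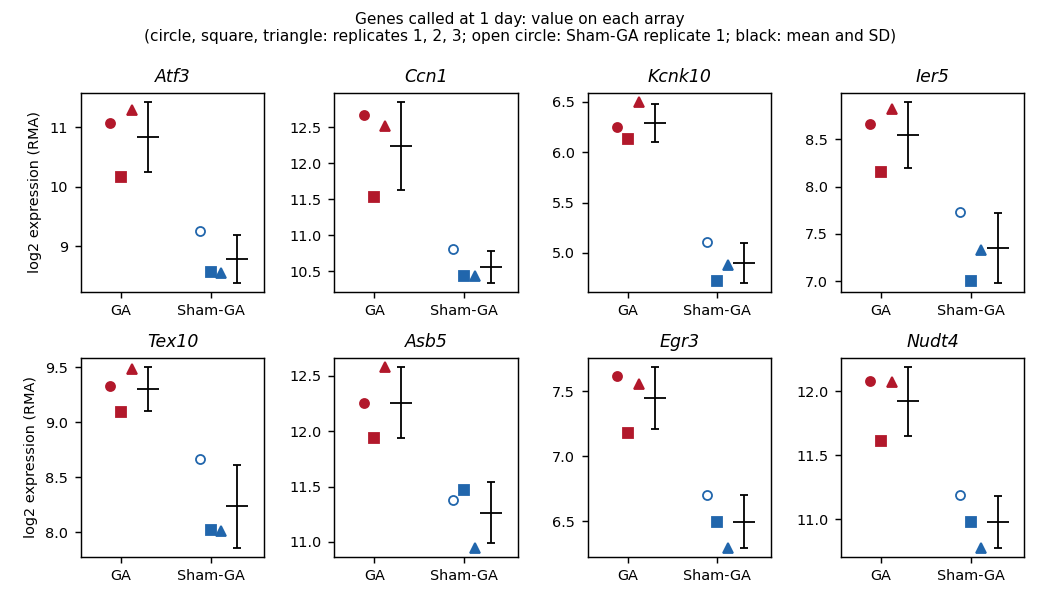
Log2 expression (RMA value, y axis) of the 8 called genes in GA and Sham-GA soleus at 1 day (x axis), with the arrays as points and the mean and SD in black. In every panel the 3 GA points lie above the 3 Sham-GA points, and the open circle, Sham-GA replicate 1, is the highest Sham-GA point in all panels but that of Asb5, where the GA values are 12.26, 11.94 and 12.58.

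The immediate early genes were higher in GA soleus as a group. Of 26 tested genes that encode such transcription factors and related early proteins, 25 lay above and 1 below their Sham-GA level, and 3 were called (Atf3, Egr3 and Ier5). Among the 26 genes 10 were separated, all on the higher side (38.5%, against 5.56% of all genes). Their median log2 fold change was 0.56, against -0.01 over all genes tested, of which 48.2% lay above 0, and the values ran from -0.40 (Ier3) to Atf3 at the top. The mean level of the list was 8.98, 8.35 and 8.74 in GA soleus and 8.31, 7.79 and 7.79 in Sham-GA soleus. Without Sham-GA replicate 1 the median was 0.67 and 11 of the genes were called higher, where 0.844% of all genes were. Genes named from here on that were neither called nor at an end of a list's range were chosen after their values were seen.

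Egr1, the best known member of the early growth response family, was at 11.82, 10.56 and 11.41 in GA soleus, against 9.87, 9.30 and 9.25 in Sham-GA soleus. Its groups were separated, and the difference of 1.79 on the log2 scale (SE 0.348) missed the threshold with all arrays (adjusted p = 0.109 by limma) and passed it without Sham-GA replicate 1 (1.99, adjusted p = 0.0277). Fos, the partner of Jun in AP-1, was at 10.74, 8.92 and 10.41 in GA soleus and at 9.42, 7.81 and 7.27 in Sham-GA soleus. In Fos, GA replicate 2 lay below Sham-GA replicate 1, and the difference was 1.86 (SE 0.541, adjusted p = 0.172), or 2.48 without Sham-GA replicate 1 (adjusted p = 0.0353). The AP-1 genes Fosl1 and Junb gave 1.44 and 0.64 with all arrays (adjusted p = 0.192 and 0.318) and 2.05 and 0.99 without that array (0.0254 and 0.0496). Maff, a small Maf factor, was at 7.66, 7.72 and 7.53 in GA soleus and at 7.24, 7.18 and 6.92 in Sham-GA soleus, a separated difference of 0.52 (adjusted p = 0.122, and 0.59 with 0.0493 without Sham-GA replicate 1).

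Immediate early promoters are known for carrying cyclic AMP response elements (CRE) and CArG boxes, the sites of CREB family factors and of serum response factor. The promoters below were chosen as examples with and without matches, from the called genes (Ccn1 and Ier5) and from genes separated on the higher side (Egr1 and Maff). The sequences are the 250 bases before the start of each gene in RefSeq (rat build GRCr8), and 9 of 14 genes looked for had an entry. Ccn1 is at chr2:237225690-237225939 on the minus strand, Ier5 at chr13:69822543-69822792 on the minus strand, Egr1 at chr18:26736828-26737077 on the plus strand and Maff at chr7:112792537-112792786 on the plus strand. Capitals mark matches to the CRE TGACGTCA or its shorter form ACGTCA, AP-1 TGANTCA, TEAD CATTCC, the heat shock element GAANNTTC or TTCNNGAA, and the CArG box, searched on both strands. The shorter form was added after the sequences were seen, and it overlaps every full CRE.
Ccn1: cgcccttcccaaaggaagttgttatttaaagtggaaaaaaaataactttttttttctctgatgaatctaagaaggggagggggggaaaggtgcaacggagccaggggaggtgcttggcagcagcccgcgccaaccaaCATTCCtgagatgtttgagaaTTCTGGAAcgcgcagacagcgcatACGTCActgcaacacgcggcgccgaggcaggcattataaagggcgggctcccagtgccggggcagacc
Ier5: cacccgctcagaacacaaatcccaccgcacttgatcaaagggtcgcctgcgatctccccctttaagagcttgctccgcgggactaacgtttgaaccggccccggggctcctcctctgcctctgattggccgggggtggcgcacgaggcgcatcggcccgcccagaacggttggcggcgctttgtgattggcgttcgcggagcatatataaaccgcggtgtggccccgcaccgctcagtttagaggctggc
Egr1: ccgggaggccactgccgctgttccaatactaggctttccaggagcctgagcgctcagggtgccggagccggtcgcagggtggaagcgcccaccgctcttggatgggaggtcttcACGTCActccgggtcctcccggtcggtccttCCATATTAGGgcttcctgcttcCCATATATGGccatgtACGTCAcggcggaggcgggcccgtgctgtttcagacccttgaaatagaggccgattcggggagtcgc
Maff: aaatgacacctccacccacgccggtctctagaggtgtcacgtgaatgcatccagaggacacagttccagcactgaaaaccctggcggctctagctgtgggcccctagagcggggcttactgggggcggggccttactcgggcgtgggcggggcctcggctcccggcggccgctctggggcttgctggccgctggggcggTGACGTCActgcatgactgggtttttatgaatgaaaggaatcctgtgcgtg
Ccn1 held a TEAD match, a heat shock element match and the shorter CRE, Egr1 held 2 CArG boxes (CCATATTAGG and CCATATATGG) and 2 shorter CREs, Maff held a full CRE 51 to 44 bases before its start, and Ier5 held no match. The other called genes with an entry, Asb5, Nudt4 and Tex10, held no match either, so that 4 of 5 called genes with an entry held none. Jund held a full CRE and Junb held no match. Of 33469 rat promoters of the same length, 1.59% held the full CRE, 6.95% the shorter form, 6.34% AP-1, 12.1% TEAD, 13.5% the heat shock element and 1.5% a CArG box. Of the 26 immediate early genes 16 had an entry, of which 4 held a full CRE (Dusp1, Ier2, Jund and Maff), 4 a CArG box (Egr1, Egr2, Klf6 and Zfp36) and 0 AP-1. These matches describe the letters only, and binding was not measured.

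Among genes of stretch and growth signaling the largest differences were those of Ankrd1, Hbegf and Fgf1, and 0 genes of the stretch, EGF and fibroblast growth factor lists were called with all arrays. Ankrd1, an ankyrin repeat protein of the sarcomere that responds to stretch, was at 13.37, 12.23 and 13.13 in GA soleus and at 12.30, 10.51 and 9.66 in Sham-GA soleus. Sham-GA replicate 1 lay above GA replicate 2, and the log2 fold change of 2.09 (SE 0.809) did not pass the test (adjusted p = 0.281 by limma, and 0.0858 without that array). It led 18 stretch and load responsive sarcomere genes, of which 15 lay above 0 (83.3%, against 48.2% of all genes) with a median of 0.13 (0.14 without Sham-GA replicate 1). Of these 0 were called and 4 were separated on the higher side (22.2%, against 5.56% of all genes), namely Nrap, Xirp2, Hspb7 and Lmcd1. Lmcd1, a LIM protein that acts with calcineurin in heart muscle of mice, was at 13.22, 12.35 and 13.06 in GA soleus, against 12.11, 11.98 and 10.73 in Sham-GA soleus (difference 1.26, adjusted p = 0.163, and 1.52 with 0.0550 without Sham-GA replicate 1). Ankrd2, a relative of Ankrd1, was at 13.94, 13.80 and 13.77 in GA soleus and at 13.71, 13.82 and 13.60 in Sham-GA soleus, a difference of 0.12 in both fits.

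Hbegf, a ligand of the EGF receptor, was at 11.07, 9.59 and 11.07 in GA soleus and at 9.21, 8.42 and 7.68 in Sham-GA soleus. Fgf1, a fibroblast growth factor without a signal peptide, was at 11.02, 10.25 and 11.39 in GA soleus and at 9.42, 9.45 and 8.01 in Sham-GA soleus. Both genes were separated. The difference was 2.14 for Hbegf (SE 0.547, adjusted p = 0.143 by limma) and 1.93 for Fgf1 (SE 0.390, adjusted p = 0.118), and both were called without Sham-GA replicate 1 (adjusted p = 0.0496 and 0.0309). Of 11 EGF family genes 8 lay above 0 with a median of 0.28 (0.31 without Sham-GA replicate 1, where Erbb3 was also called), and of 18 fibroblast growth factors and receptors 7 lay above 0 with a median of -0.14 (-0.12 without Sham-GA replicate 1). Bmp2, a bone morphogenetic protein, had the highest value of its list at 1.16 (adjusted p = 0.168), and it was called without Sham-GA replicate 1 (1.56, adjusted p = 0.0273).

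In the insulin-like growth factor axis 12 of 18 genes lay below 0, with a median of -0.15 (-0.27 without Sham-GA replicate 1). Igfbp6 was lowest at -0.85 (adjusted p = 0.192, and -0.96 with 0.102 without Sham-GA replicate 1). Igf1, the growth factor of muscle hypertrophy, was at 9.43, 10.36 and 9.80 in GA soleus and at 9.80, 9.69 and 10.46 in Sham-GA soleus. The groups of Igf1 overlapped, with a difference of -0.12 (SE 0.340), or -0.21 without Sham-GA replicate 1. Mstn, which encodes the growth inhibitor myostatin, was at 5.20, 5.17 and 5.39 in GA soleus, against 5.93, 6.15 and 5.81 in Sham-GA soleus. Its groups were separated, and the difference of -0.71 (SE 0.232) did not pass the test (adjusted p = 0.208 by limma), nor did that of -0.73 without Sham-GA replicate 1 (adjusted p = 0.145). Within the calcineurin list, the inhibitor genes Rcan1 and Rcan2 lay at its opposite ends, Rcan1 at 0.96 and Rcan2 at -0.97 (adjusted p = 0.197 and 0.371), or 1.17 and -1.34 without Sham-GA replicate 1 (0.0796 and 0.142).

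Neutrophil genes were higher in GA soleus and in Sham-GA replicate 1. All 20 tested markers lay above their Sham-GA mean (median 0.83 on the log2 scale), and 0 were called. On the higher side 3 were separated (Elane, Camp and Padi4), 15% of the list against 5.56% of all genes. Without Sham-GA replicate 1 the median was 1.32 and 7 were called higher (Ncf1, S100a8, Slpi, Fcnb, Csf3r, S100a9 and Cxcr2), where 0.844% of all genes were. That array had the highest mean level of the list in its group, so leaving it out widens the difference. The mean level of the list was 8.13, 7.01 and 7.63 in GA soleus, against 7.64, 6.29 and 6.11 in Sham-GA soleus, with Sham-GA replicate 1 above GA replicate 2 and level with GA replicate 3. In whole muscle, more cells of a type and more RNA per cell cannot be told apart. S100a9, a calcium binding protein of neutrophils, was at 9.68, 7.97 and 9.11 in GA soleus and at 8.74, 6.17 and 5.50 in Sham-GA soleus. Its difference was 2.12 (SE 0.597, adjusted p = 0.166), or 3.08 without Sham-GA replicate 1 (adjusted p = 0.00368 by limma). Cxcr2, the chemokine receptor that draws neutrophils to tissue, was at 9.24, 7.41 and 8.35 in GA soleus and at 8.30, 5.50 and 4.78 in Sham-GA soleus, the largest difference of the list at 2.14 (adjusted p = 0.179, and 0.00368 without that array). The separated markers were dim genes with small differences, 0.23 for Elane, 0.29 for Camp and 0.52 for Padi4. The granule genes Mpo, Elane and Camp, which are transcribed in bone marrow precursors, lay between 5.45 and 6.15 on all 6 arrays.

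Macrophage and monocyte markers gave a like pattern, with Sham-GA replicate 1 at the top. Of 26 markers 22 lay above 0, with a median of 0.50 and values from -0.69 (C1qb) to 1.12 (Ptprc, the common leukocyte antigen), and 0 were called. On the higher side 0 were separated (0%, against 5.56% of all genes), and on the lower side 1 was (3.85%, against 11.1%). The mean level was 9.81, 8.96 and 9.37 in GA soleus, against 9.91, 8.48 and 8.35 in Sham-GA soleus. Without Sham-GA replicate 1 the median was 1.13, and 0 were called in that fit also. Markers of resident and scavenging macrophages were mixed. Cd163 was at 10.33, 10.87 and 10.58 in GA soleus and at 10.57, 9.18 and 10.23 in Sham-GA soleus (difference 0.60, adjusted p = 0.446, and 0.89 with 0.163 without Sham-GA replicate 1). The complement gene C1qb was separated on the lower side (adjusted p = 0.305, and -0.92 with 0.108 without Sham-GA replicate 1). Lymphocyte markers had a median of 0.08 over 16 genes, 12 of them above 0 (0.19 without Sham-GA replicate 1).

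Cytokine and interferon genes rested on the same arrays. Of 31 cytokines and chemokines 26 lay above 0 with a median of 0.34 and 0 called. Without Sham-GA replicate 1 the median was 0.51 and Tnf, Csf1 and Ccl7 were called higher, where 0.844% of all genes were. Ccl2, which draws monocytes, was at 13.30, 12.30 and 12.80 in GA soleus and at 13.17, 11.37 and 11.09 in Sham-GA soleus (difference 0.93, adjusted p = 0.428, and 1.57 with 0.0730 without Sham-GA replicate 1). Il6, a cytokine that working muscle releases, was at 7.43, 4.56 and 5.66 in GA soleus and at 7.64, 4.24 and 5.59 in Sham-GA soleus. The Il6 groups overlapped, replicate 1 was the highest of each, and the difference was 0.06 (SE 0.715), or 0.97 without Sham-GA replicate 1 (adjusted p = 0.422). Of 20 interferon-stimulated genes 18 lay above 0, with a median of 0.64 (0.83 without Sham-GA replicate 1) and mean levels of 8.24, 7.01 and 7.76 in GA soleus, against 7.45, 6.71 and 6.63 in Sham-GA soleus. Ifit1, an antiviral effector, had the highest value of this list at 2.27 (SE 0.711, adjusted p = 0.190 by limma, and 2.91 with 0.0560 without Sham-GA replicate 1). In the fit without that array 6 of the genes were called higher (Tap1, Bst2, Mx2, Ifit3, Irf7 and Oasl), where 0.844% of all genes were. The part that leukocyte RNA has in the differences of immediate early, cytokine and metabolic genes was not tested.

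**Figure D2:**
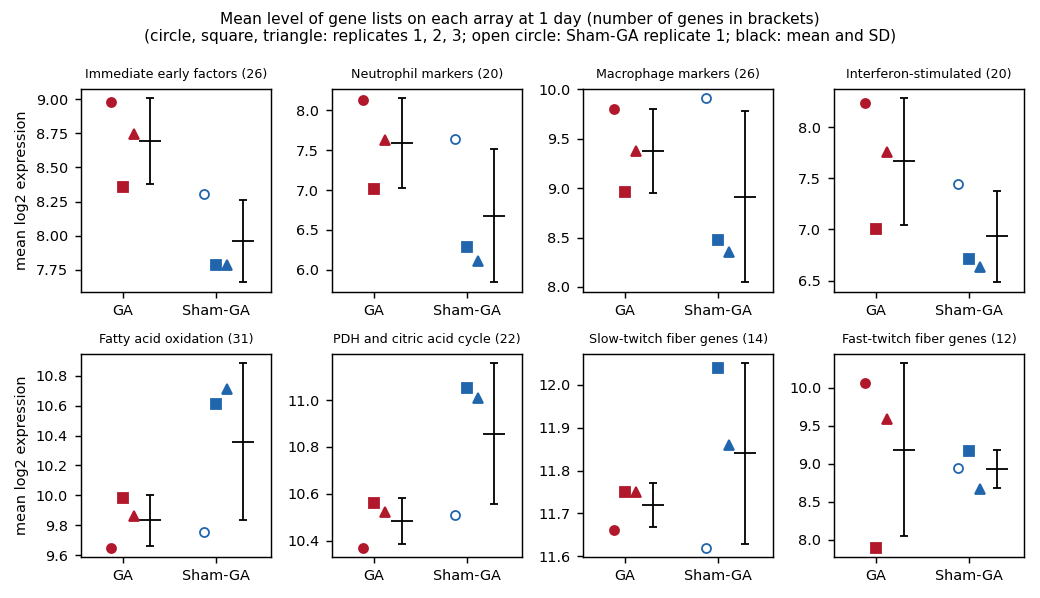
Mean log2 expression (y axis) of 8 gene lists on each array of GA and Sham-GA soleus at 1 day (x axis), with the mean and SD in black. Sham-GA replicate 1 (open circle) lies among or above the GA arrays for neutrophil (7.64) and macrophage markers (9.91) and among them for fatty acid oxidation (9.76), and the fast-twitch genes spread most within the GA group, from 7.90 to 10.06.

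Genes for burning fat and sugar lay lower in GA soleus and in Sham-GA replicate 1. Of 31 genes of fatty acid uptake and oxidation 30 lay below 0 (median -0.51 on the log2 scale), with mean levels of 9.65, 9.99 and 9.86 in GA soleus, against 9.76, 10.61 and 10.71 in Sham-GA soleus. With all arrays 0 were called. On the lower side 4 were separated (Acot13, Slc25a20, Slc27a1 and Hadha), 12.9% of the list, which is near the 11.1% of all genes. Without Sham-GA replicate 1 the median was -0.84 and Cpt2, the inner carnitine palmitoyltransferase, was called (-1.29, adjusted p = 0.0488 by limma). Acot13, a thioesterase of fatty acyl-CoA, was at 7.60, 7.94 and 7.34 in GA soleus, against 8.12, 9.17 and 8.92 in Sham-GA soleus, and had the lowest value of the list (-1.11, SE 0.424, adjusted p = 0.273, and -1.42 with 0.108 without Sham-GA replicate 1). Slc25a20, which carries acylcarnitines into mitochondria, was at 9.22, 9.09 and 9.35 in GA soleus and at 9.51, 10.29 and 10.50 in Sham-GA soleus. These groups were separated, with Sham-GA replicate 1 nearest to the GA arrays, and the difference was -0.88 (adjusted p = 0.247), or -1.17 without Sham-GA replicate 1 (0.0705).

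In the citric acid cycle with pyruvate dehydrogenase, 21 of 22 genes lay below 0, with a median of -0.34 (-0.53 without Sham-GA replicate 1), and 0 were called. On the lower side 6 were separated (27.3%, against 11.1% of all genes). Cs, which encodes citrate synthase, was at 11.40, 11.13 and 11.36 in GA soleus and at 11.69, 12.02 and 12.17 in Sham-GA soleus, the lowest value of the list at -0.67 (SE 0.212, adjusted p = 0.195, and -0.80 with 0.0814 without Sham-GA replicate 1). Pdk4, the kinase that closes pyruvate dehydrogenase, was the 1 gene above 0, at 0.04 (-0.08 without Sham-GA replicate 1). Of 67 subunits of oxidative phosphorylation 60 lay below 0 with a median of -0.21, and 0 reached 1.5 fold or were called, the lowest being Sdhd of complex II at -0.58. On the lower side 5 of the subunits were separated (7.46%, which is below the 11.1% of all genes). The mean level of the subunits was 10.98, 11.11 and 11.08 in GA soleus, against 10.93, 11.48 and 11.39 in Sham-GA soleus. Sham-GA replicate 1 thus lay below all GA arrays. Without that array the median of the subunits was -0.39 and Sdhd was at -0.81 (adjusted p = 0.0805). Of 29 genes of glycolysis and glycogen 23 lay below 0 with a median of -0.24 (-0.43 without Sham-GA replicate 1). Pfkfb1, which sets the level of fructose 2,6-bisphosphate, was at 6.48, 6.82 and 6.30 in GA soleus and at 6.81, 8.81 and 8.59 in Sham-GA soleus, and its difference of -1.54 (SE 0.573, adjusted p = 0.260) was the lowest of all 14451 genes. It was -2.17 without Sham-GA replicate 1 (adjusted p = 0.0565).

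Ppargc1a, the coactivator PGC-1α that drives mitochondrial genes, was at 7.26, 7.68 and 7.19 in GA soleus and at 7.56, 9.05 and 8.05 in Sham-GA soleus. GA replicate 2 lay above Sham-GA replicate 1, and the difference was -0.84 (SE 0.380, adjusted p = 0.347 by limma), or -1.17 without that array (adjusted p = 0.119). It was the lowest of 15 genes of the PGC-1 network, of which 12 lay below 0 with a median of -0.25 (-0.40 without Sham-GA replicate 1). Over all 14451 genes, 278 were both separated on the lower side and past 1.5 fold, against 75 on the higher side. Outside the lists, the separated lower genes with the largest differences were Kera (-1.49), Chodl (-1.43) and Car14 (-1.41), with adjusted p values of 0.351, 0.141 and 0.252. They were at -1.73, -1.42 and -1.95 without Sham-GA replicate 1 (adjusted p = 0.223, 0.0883 and 0.0590).

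Scx, Tnmd, Kera, Fmod and Chad, which are known from tendon and cartilage, were named after their values were seen and belong to no list of tendon genes tested here. All 5 were separated on the lower side, as were 11.1% of all genes. Scx, the transcription factor of tendon cells, was at 8.23, 8.45 and 8.31 in GA soleus, against 8.78, 9.27 and 9.30 in Sham-GA soleus (difference -0.78, SE 0.180, adjusted p = 0.122 by limma, and 0.0273 without Sham-GA replicate 1). Tnmd, which encodes tenomodulin, was at 5.75, 5.33 and 5.54 in GA soleus and at 6.84, 7.08 and 6.61 in Sham-GA soleus. Its groups lay far apart on this day, but the spread over the other days of the fit was wide, and the difference of -1.30 had an SE of 0.675 (adjusted p = 0.411, and 0.380 without Sham-GA replicate 1). The proteoglycan genes Kera and Fmod and the matrix gene Chad had differences of -1.49, -1.10 and -1.35, and 0 of them were called (adjusted p = 0.351, 0.483 and 0.353), also not without Sham-GA replicate 1 (0.223, 0.317 and 0.149). Of 14 fibroblast markers 12 lay below 0 (median -0.12, and -0.13 without Sham-GA replicate 1), and of 31 genes of the extracellular matrix, Fmod among them, 20 lay above 0 (median 0.14, and 0.20 without Sham-GA replicate 1). How much tendon was taken with each muscle is not known.

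**Figure D3:**
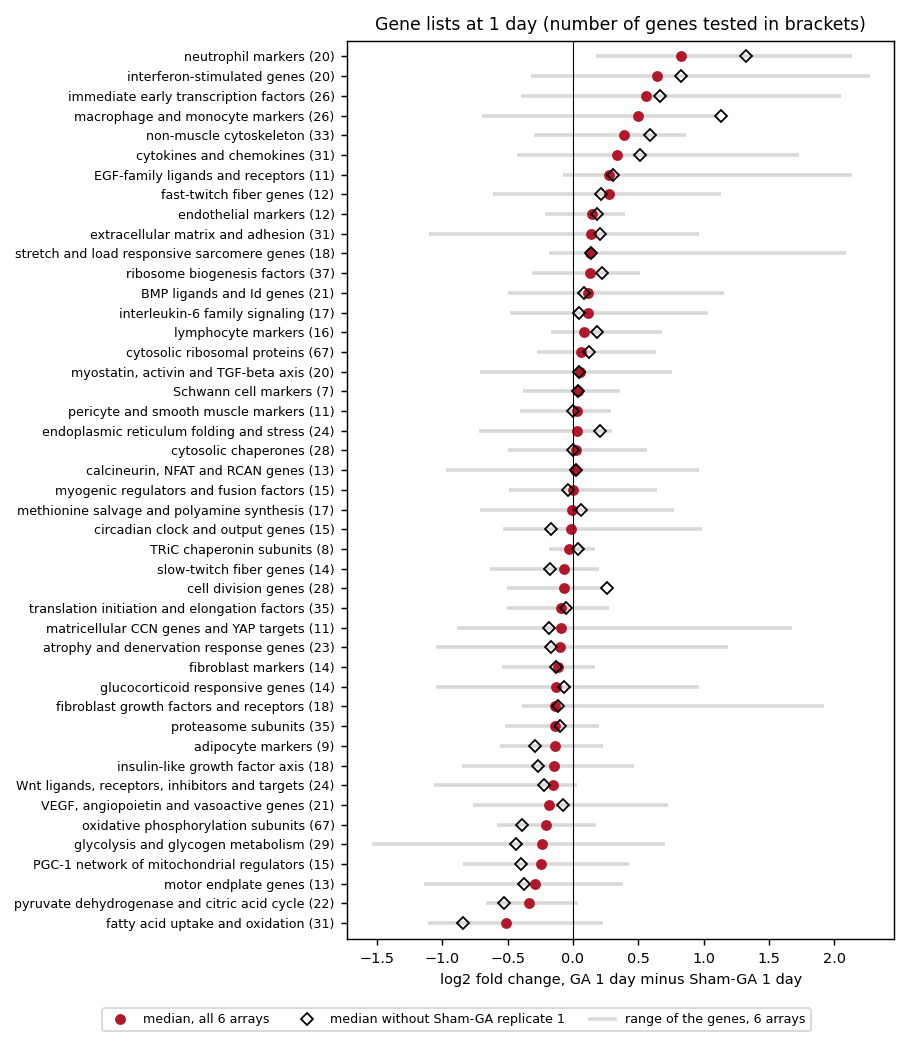
Median log2 fold change, GA minus Sham-GA at 1 day (x axis), of the gene lists (y axis), with all 6 arrays (filled circles) and without Sham-GA replicate 1 (open diamonds), and the range of each list's genes in grey. Neutrophil markers lie at the top at 0.83 and fatty acid genes at the bottom at -0.51, and for both the diamond lies farther from 0, at 1.32 and -0.84.

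In both lists of fiber type genes 0 genes were called and 0 were separated. Myh2, the myosin heavy chain of fast IIA fibers, was at 11.33, 7.46 and 11.70 in GA soleus and at 10.27, 9.28 and 7.54 in Sham-GA soleus, so that the groups overlapped (difference 1.13, SE 1.03, adjusted p = 0.669 by limma, and 1.76 with 0.417 without Sham-GA replicate 1). Over 12 fast-twitch genes the mean level was 10.06, 7.90 and 9.59 in GA soleus and 8.94, 9.17 and 8.67 in Sham-GA soleus, with GA replicate 2 the lowest of all 6. Of these genes 8 lay above 0 with a median of 0.27 (0.22 without Sham-GA replicate 1), from -0.61 (Actn3) to Myh2 at the top. Of 14 slow-twitch genes 10 lay below 0 with a median of -0.07 (-0.18 without Sham-GA replicate 1). Myh7, slow myosin heavy chain, was at 13.42, 13.52 and 13.52 in GA soleus and at 13.43, 13.60 and 13.61 in Sham-GA soleus, a difference of -0.06 (SE 0.113), or -0.12 without Sham-GA replicate 1.

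Genes of the motor endplate had a lower mean level in GA soleus and in Sham-GA replicate 1 than on the other Sham-GA arrays. The mean level was 7.725, 7.943 and 7.886 in GA soleus, against 7.867, 8.27 and 8.419 in Sham-GA soleus. Of 13 such genes 11 lay below 0, with a median of -0.29 (-0.37 without Sham-GA replicate 1), and 0 were called. On the lower side 4 were separated (Chrna1, Musk, Rapsn and Chrng), 30.8% of the list against 11.1% of all genes. Chrna1, the alpha subunit of the muscle acetylcholine receptor, was at 9.93, 11.50 and 11.09 in GA soleus, against 11.54, 11.96 and 12.45 in Sham-GA soleus. The difference of -1.14 (SE 0.383) did not pass the test (adjusted p = 0.219, and -1.36 with 0.0984 without Sham-GA replicate 1). Of 23 genes of atrophy and denervation 14 lay below 0 with a median of -0.10 (-0.17 without Sham-GA replicate 1). Fbxo32, which encodes the ubiquitin ligase atrogin-1, was at 10.19, 11.08 and 10.50 in GA soleus and at 11.06, 11.83 and 12.02 in Sham-GA soleus (difference -1.04, adjusted p = 0.322, and -1.33 with 0.141 without Sham-GA replicate 1), and Gadd45g had the highest value of the list at 1.18 (adjusted p = 0.122, and 0.0273 without Sham-GA replicate 1).

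Lists of protein synthesis and turnover lay on both sides of 0, with medians from -0.14 to 0.13. Of 67 cytosolic ribosomal proteins 48 lay above 0 with a median of 0.06 (0.12 without Sham-GA replicate 1). On the higher side 17 were separated (25.4%, against 5.56% of all genes) and on the lower side 3 (4.48%, against 11.1%). Rps27 was highest at 0.64 (adjusted p = 0.122 by limma, and called at 0.74 with 0.0488 without Sham-GA replicate 1). Of 37 ribosome biogenesis factors 27 lay above 0 with a median of 0.13 (0.22 without Sham-GA replicate 1, where Ppan was called). Of 35 translation initiation and elongation factors 26 lay below 0 with a median of -0.09 (-0.05 without Sham-GA replicate 1), and 0 were called. Of the 35, 2 were separated on the higher side, where 5.56% of all genes were, and 5 on the lower side, where 11.1% were. Of 35 proteasome subunits 25 lay below 0 with a median of -0.14 (-0.10 without Sham-GA replicate 1), and 0 were called. On the lower side 11 were separated (31.4%, against 11.1% of all genes). Cytosolic chaperones had a median of 0.03 over 28 genes, and the cochaperone Cdc37 had the lowest value of that list (-0.50, adjusted p = 0.122, and -0.53 with 0.0655 without Sham-GA replicate 1). Of 33 genes of the non-muscle cytoskeleton 27 lay above 0 with a median of 0.39, and 0 were called. On the higher side 2 were separated (Myl12a and Zyx), 6.06% of the list, which is near the 5.56% of all genes. The mean level of the list was 10.79, 10.27 and 10.51 in GA soleus, against 10.75, 9.91 and 9.96 in Sham-GA soleus. Sham-GA replicate 1 thus lay above GA replicates 2 and 3. Without that array the median was 0.59 and Ezr, which encodes the membrane linker ezrin, was called. Of 24 Wnt pathway genes 20 lay below 0 with a median of -0.15 (-0.22 without Sham-GA replicate 1), from -1.06 (Sfrp4, a secreted Wnt antagonist) to 0.03 (Frzb).

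The 8 called genes were set beside the effects 3 and 7 days after surgery, which use other animals throughout. Kcnk10 was at 5.17, 4.92 and 5.12 in GA soleus and at 5.07, 5.18 and 4.85 in Sham-GA soleus at 3 days, and at 4.94, 4.94 and 4.92 in GA soleus and at 5.07, 4.86 and 4.47 in Sham-GA soleus at 7 days. On both later days its groups overlapped, with differences of 0.04 and 0.13 (SE 0.153 each). Atf3 was at 9.81, 8.71 and 8.89 in GA soleus and at 8.49, 8.90 and 8.30 in Sham-GA soleus at 3 days, and at 10.15, 9.87 and 9.64 in GA soleus and at 8.59, 8.85 and 9.66 in Sham-GA soleus at 7 days. Its log2 fold changes were 2.05, 0.57 and 0.86 at 1, 3 and 7 days. The other 6 genes had values from -0.02 (Egr3) to 0.31 (Nudt4) at 3 days and from -0.26 (Asb5) to 0.50 (Ccn1) at 7 days.

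The difference between days was tested in the same fit. Subtracting the 7-day effect from the 1-day effect gave 0 called genes of 14451 (0%), with 1193 at an unadjusted p under 0.05, and subtracting the 3-day effect gave 0 (0%), with 1398, both by limma. For Kcnk10 these differences were 1.25 and 1.35 (SE 0.217 each, adjusted p = 0.382 and 0.209), and for Atf3 they were 1.19 and 1.48 (SE 0.490 each, adjusted p = 0.529 and 0.450). In the fit of all 33 arrays Kcnk10 was called in both tests, and without GA replicate 2 at 1 day Asb5, Herc6 and Trafd1 were called for day 1 minus day 7. The neutrophil list had medians of 0.83, -0.03 and -0.01 at 1, 3 and 7 days, the immediate early list 0.56, 0.32 and 0.05, and the fatty acid list -0.51, -0.88 and -0.44.

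**Figure D4:**
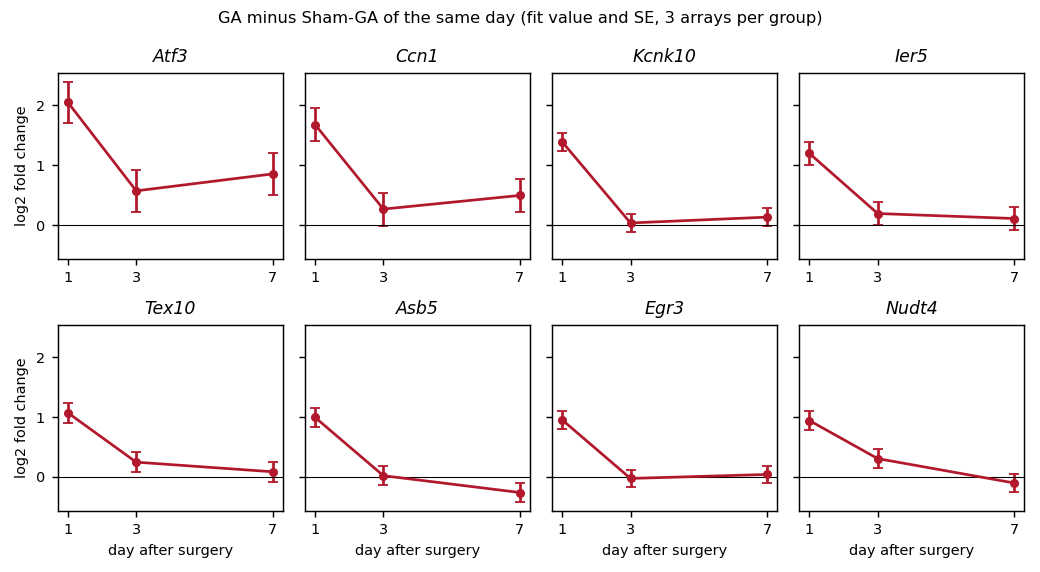
Log2 fold change, GA minus the Sham-GA group of the same day (y axis), of the 8 called genes by days since surgery (x axis, 1, 3 and 7), with the SE of the fit and 3 arrays per group. Kcnk10 has values of 1.39, 0.04 and 0.13, and Atf3 stays above 0 with values of 2.05, 0.57 and 0.86.

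The 1-day effect of GA was also set against the 1-day effect of ES. The SCI-ES animals had a complete transection of the spinal cord, followed weeks later by implantation of a stimulator with a gastrocnemius tenotomy, and were stimulated for 1 day. The SCI animals had the transection, the implantation surgery without a stimulator and the tenotomy, and no ES, so that a cut gastrocnemius is common to both of these groups. By the study's methods the SCI animals were taken later after the implantation surgery than animals with 1 day of ES. The ES effect therefore cannot be told apart from this difference in time. None of these arrays is shared with the GA comparison. The test of the difference, GA effect minus ES effect over all 33 arrays, called 2 genes higher (0.0138% of 14453) and 6 lower (0.0415%). Kcnk10 differed by 1.48 (SE 0.195, adjusted p = 0.000782 by limma). Its values were 4.81, 4.86 and 5.03 in SCI-ES soleus after 1 day of ES and 5.10, 4.89 and 4.98 in SCI soleus. Egr3 differed by 1.12 (SE 0.181, adjusted p = 0.0122), with an ES effect of -0.17.

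The 6 lower genes had a GA effect below 0 and an ES effect above 0. Lyplal1, a lysophospholipase-like gene, was at 7.19, 7.00 and 7.19 in GA soleus and at 7.92, 8.08 and 8.15 in Sham-GA soleus, and at 8.37, 8.05 and 8.20 in SCI-ES soleus and at 7.40, 7.85 and 7.47 in SCI soleus. Both pairs of groups were separated, in opposite directions, and the effects differed by -1.56 (SE 0.267, adjusted p = 0.0148 by limma). Adi1, a dioxygenase of methionine salvage, was at 6.20, 6.39 and 6.38 in GA soleus and at 6.93, 7.16 and 7.01 in Sham-GA soleus, and at 7.86, 7.50 and 7.72 in SCI-ES soleus and at 6.96, 6.84 and 7.06 in SCI soleus. Its effects differed by -1.45 (SE 0.262, adjusted p = 0.0215). Tom1l1, Dusp12, St3gal5 and Chchd5 differed by -1.49, -1.20, -1.01 and -0.96 (adjusted p = 0.0122 to 0.0233). Without Sham-GA replicate 1, 102 genes were called in this test, all 8 among them, and without GA replicate 3 Kcnk10 alone was.

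**Figure D5:**
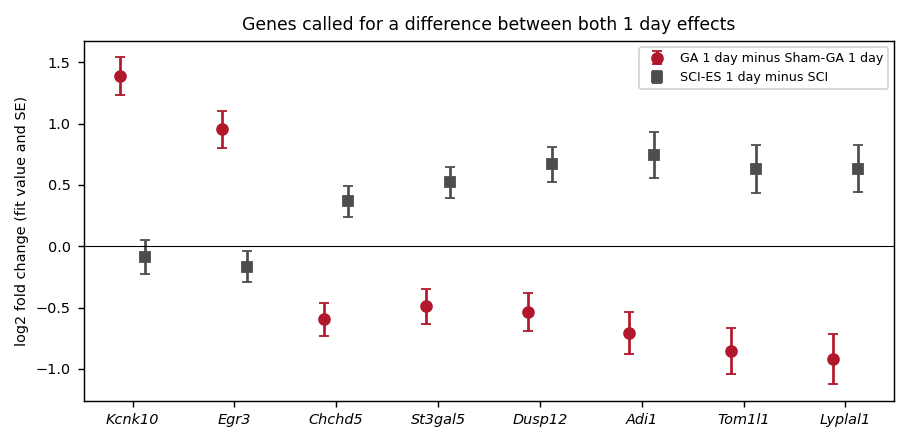
Log2 fold changes at 1 day (y axis) of the 8 genes called for a difference between the GA effect (circles) and the ES effect (squares), with the SE of each fit and 3 arrays per group (x axis, genes). Kcnk10 and Egr3 have GA effects of 1.39 and 0.95 beside ES effects of -0.09 and -0.17, and the 6 other genes have GA effects below 0 beside ES effects above 0.

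For other genes no difference between the experiments passed the test, which does not show that the effects were alike. Ankrd1 had a GA effect of 2.09 (SE 0.809) and an ES effect of 2.65 (SE 0.900), a difference of -0.56 (SE 1.27, adjusted p = 0.878 by limma). S100a9 had effects of 2.12 and 1.58 and a difference of 0.54 (SE 0.778, adjusted p = 0.802). Mstn and the acetylcholine receptor subunit Chrnd had GA effects of -0.71 and -0.48 and ES effects of 1.53 and 1.68, with differences of -2.24 and -2.16 that stayed above the threshold (adjusted p = 0.138 and 0.205).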

How the data were processed

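RNA from whole soleus was hybridized to Affymetrix rat arrays, 1 per animal. The deposited values are log2 expression made by the authors with RMA in the oligo package (background subtraction, quantile normalization and median polish), whose versions are not given in the sources used here; these steps compress differences of dim genes. Of 29214 rows, 15310 had 1 gene symbol in the platform annotation, 323 had several and 13581 had none and were left out. Where several rows named a gene (527 genes) the brightest on average was kept, which left 14506 genes, and a gene was tested in a fit where its arrays averaged 3 or more.

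The test was limma's (version 3.58.1, R 4.3.3) on a model of group means, with Benjamini-Hochberg adjustment over all genes tested. The fit was also run on simulated data with independent noise for each gene. Those data hold no differences between whole arrays, such as that of Sham-GA replicate 1, so they cannot show how the fit deals with them. The fit against ES held all 33 arrays. The number of arrays limits the precision. The p-values set a difference against the spread between animals within groups, pooled over all groups of the fit. This spread is not that of the day 1 animals alone. Named genes were the called and separated ones (up to 15 in each direction), the ends of each list's range and up to 4 called genes of it, genes the study names for GA, and the 6 largest called differences between effects in each direction. Gene lists and members were chosen with earlier results of these data known. Alternatives covered filters, normalization, the prior, the rows of a gene, the arrays in the fit, the replicate number as a block, single arrays left out, the fold minimum and the methods' test. Promoters are from RefSeq. The tables were made with pandas 2.3.3 and the figures with matplotlib 3.10.9 in Python 3.11.15.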

Additional observations from a re-analysis of the deposited data

Results flagged for a closer look

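For 8 genes the 1-day effect of GA differed from the 1-day effect of ES by the limma test of the difference itself (adjusted p under 0.05 and at least 1.5 fold). The GA effect minus the ES effect was 1.48 for Kcnk10, 1.12 for Egr3, -0.96 for Chchd5, -1.01 for St3gal5, -1.20 for Dusp12, -1.45 for Adi1, -1.49 for Tom1l1 and -1.56 for Lyplal1 on the log2 scale. Chchd5, a mitochondrial protein gene, had a GA effect of -0.60 (SE 0.137) and an ES effect of 0.37 (SE 0.125). St3gal5, the synthase of ganglioside GM3, had a GA effect of -0.49 (SE 0.144) and an ES effect of 0.52 (SE 0.128). Dusp12, a dual specificity phosphatase, had effects of -0.53 (SE 0.153) after GA and 0.67 (SE 0.141) after ES. Tom1l1, an adaptor of endosomal sorting, had effects of -0.86 (SE 0.186) after GA and 0.63 (SE 0.195) after ES. The experiments also differ in spinal injury, time since tenotomy and the reference used, which cannot be told apart from the kind of loading. Within the ES effect, time since tenotomy differs between SCI-ES and SCI animals as well. Single genes were not searched for an outlying sample, since all groups have 3 arrays.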

How the results depend on the processing

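The count of genes called for GA against Sham-GA at 1 day was 8, all higher. It was 7 with a filter at a mean of 6, which removes Kcnk10, and 7 with a trended and robust prior, and 8 without a filter on dim genes, with the variance filter, with a gene's rows averaged and without a fold minimum. It was 13 after quantile normalization again and 12 with array medians set equal, 5 at a 2 fold minimum, 81 (36 higher and 45 lower) with all 33 arrays in the fit, and 0 with the 6 arrays of day 1 alone, where 1666 genes had an unadjusted p under 0.05. The methods' test of treatment and day called 534 genes (171 higher and 363 lower), and 0 after Benjamini-Hochberg adjustment. Leaving out 1 array of day 1 gave 1 to 182 genes: 1 without GA replicate 1, GA replicate 3, Sham-GA replicate 2 or Sham-GA replicate 3, 50 without GA replicate 2 and 182 without Sham-GA replicate 1. Leaving out an array of the other days, which was chosen after seeing the data, gave 1 to 10. At 3 days it gave 1, 10 and 2 without GA replicates 1, 2 and 3, and 1, 10 and 1 without Sham-GA replicates 1, 2 and 3. At 7 days it gave 1, 1 and 1 without GA replicates 1, 2 and 3, and 1, 1 and 8 without Sham-GA replicates 1, 2 and 3. Where 1 gene was left it was Kcnk10.

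With the replicate number as a block 1 gene was called, Kcnk10. The array titles name no pairs, and the numbers were not taken as pairs in the main fit. Deviations of same-numbered arrays correlated at 0.612, 0.417 and -0.03, and those of differently numbered arrays at -0.599 to 0.499. These values cannot show whether the numbers are pairs, and the count of 8 depends on that choice. The block gave 0 calls for day 1 minus day 7, 0 for day 1 minus day 3 and 7 for GA minus ES.

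The difference of day 1 from day 7 gave 0 calls in the main setting, 1 (Kcnk10) with all 33 arrays and 0 to 3 with 1 array left out, the 3 being Asb5, Herc6 and Trafd1 without GA replicate 2 at 1 day. That from day 3 gave 0, 1 (Kcnk10) with all 33 arrays and 0 with 1 array left out. GA minus ES gave 8, or 7 with a filter at a mean of 6, 11 after quantile normalization again (6 higher and 5 lower), 5 with array medians set equal (2 higher and 3 lower) and 7 at a 2 fold minimum. Leaving out 1 array gave 1 to 102: 3, 96 and 5 without SCI-ES replicates 1, 2 and 3, 85, 39 and 1 without GA replicates 1, 2 and 3, 102, 2 and 2 without Sham-GA replicates 1, 2 and 3, and 3, 17 and 7 without SCI replicates 1, 2 and 3. The causes of these changes were not tested.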
